A study of Mus musculus with 6 samples.

Results

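The Slc25 genes encode the mitochondrial carrier family, and their transcripts were compared between hypertrophic mouse hearts given a decoy against the microRNA miR-199a and hearts given a control virus. The members were every protein-coding row of the deposited gene table whose symbol is Slc25a followed by a number, with Slc25a20, the carnitine and acylcarnitine carrier, left out by the same rule. They came to 46 genes of the 54532 rows of the table, 22046 of which are protein coding. RNA had been extracted from frozen myocardium of wild-type C57BL/6 mice aged 18 weeks, and all 6 hearts were hypertrophic. The 3 libraries of the EGFP group came from hearts given adeno-associated virus of serotype AAV9 that carried EGFP, a green fluorescent protein. The 3 libraries of the TuD group came from hearts given AAV9-anti-miR-199a TuDs. A TuD, or tough decoy, is a hairpin RNA with binding sites that hold a microRNA away from its targets. The labels give neither the promoter of the viruses, the dose, the sex of the mice nor how hypertrophy was induced, and no group without virus or without hypertrophy was analysed here. They do not say whether each library is a separate animal, so p-values measure only the spread between these libraries.

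The deposited values are FPKM, read counts divided by gene length and by library size, and the reads behind them ranged from 15.2 to 18.2 M (megareads) per library, so that 3 reads over a gene of 2 kilobases equal an FPKM of 0.0774 to 0.104. TuD replicates 1 and 2 stood apart, since the summed FPKM of Uty, Kdm5d, Ddx3y and Eif2s3y, which lie on the Y chromosome, was 0.0254 and 0.00711 in them, against 8.32 to 9.59 in the EGFP libraries and 12.5 in TuD replicate 3. Xist, on the X chromosome, had 0 reads in every EGFP library and 391, 33 and 5 in TuD replicates 1, 2 and 3. TuD replicates 1 and 2 thus differed in Xist. A fit with the Y-linked difference as a covariate treats TuD replicates 1 and 2 alike, and rests on TuD replicate 3 alone for its estimate of the decoy. Its values stand beside the calls that it ended and beside some members whose sign it turned or whose estimate it moved. Other estimates moved as well. Among the members, Slc25a5, Slc25a14, Slc25a43 and Slc25a53 are on the X chromosome; the first pair was tested and did not pass, and the other pair was under the filter on low values. Mitochondrial genes took 5.31% to 12% of the reads in the EGFP libraries and 11.1% to 17.5% in the TuD libraries. Against the label myocardium, the heart muscle genes Myh6 and Tnni3 averaged 3895 and 3063 normalised FPKM in the EGFP group and 4023 and 4631 in the TuD group, while of the skeletal muscle genes Myh4 was at 0 in every library, Myh1 had 3 reads in the EGFP group and 0 in the TuD group, and Myh2 had 1 and 3. Mylpf, another skeletal muscle gene, had 26 reads in the EGFP group and 62 in the TuD group without overlap. In whole tissue, fewer cells of a type and less RNA per cell cannot be told apart. Mature miR-199a was not measured in these libraries. Reads at its host genes were few: Mir199a-1 had 2 reads in EGFP replicate 1 and 1 in TuD replicate 3, Mir199a-2 had none, and Dnm3os had 3, 1 and 2 reads in the EGFP libraries and 14, 4 and 3 in the TuD libraries. The decoy's effect on its target therefore has no direct check here.

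Mitochondrial carriers are small proteins of the inner mitochondrial membrane, with a few members in other membranes. Each exchanges or carries a particular set of metabolites, so the family decides which nucleotides, acids, amino acids and cofactors pass between the cytosol and the mitochondrial matrix. In heart muscle, which meets nearly all of its energy demand by oxidative phosphorylation, the adenine nucleotide and phosphate carriers are especially abundant, because they bring ADP and phosphate to the ATP synthase and export the ATP. The malate-aspartate shuttle, which moves reducing equivalents from cytosolic NADH into the matrix, also runs through carriers of this family.

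The decoy was designed against miR-199a, whose hairpin yields a mature RNA from each arm. Their sequences are shown because the members were searched for sites that match them. A microRNA pairs with a transcript mainly through its seed, and such pairing usually lowers the transcript or its translation. The seed, bases 2 to 8, is in capitals, and the sequences are those of RefSeq on GRCm38.p6.
miR-199a-5p: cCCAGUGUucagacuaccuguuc
miR-199a-3p: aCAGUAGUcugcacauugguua
Both arms are encoded at a pair of loci. For Mir199a-1, the 5p arm lies at chr9:21496537-21496559 and the 3p arm at chr9:21496498-21496519, both on the minus strand. For Mir199a-2 they lie at chr1:162217844-162217866 and chr1:162217883-162217904, both on the plus strand. The seeds of the arms differ, so each has its own set of sites.

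A site was counted where the longest annotated 3′ UTR of a gene (GENCODE M21, GRCm38, the build mm10 of the files), read on the transcript strand only, held a match to its arm. For miR-199a-5p the match was ACACTGG (opposite bases 2 to 8), or else CACTGGA (opposite bases 2 to 7, then an A), or both joined in the 8 bases ACACTGGA. For miR-199a-3p it was ACTACTG in the first case, or else CTACTGA in the second, or both joined in the 8 bases ACTACTGA. A stretch of 8 bases was counted once, as an 8-base site. Of the 46 members, 45 have an annotated 3′ UTR, including all 35 members that were tested. A miR-199a-5p site was present in 10 of the 35 tested members (28.6%), against 2218 of 9549 tested genes with a 3′ UTR (23.2%). An 8-base miR-199a-5p site was present in 5 of the 35 (14.3%), against 443 of the 9549 (4.64%). A miR-199a-3p site was present in 5 of the 35 (14.3%), against 13.7% of the 9549, and none of the members held an 8-base site for that arm. The median 3′ UTR length was 1231 bases in the tested members and 1102 bases in all tested genes. These are matches of letters and do not show that a site is used.

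Of the 5 tested members with an 8-base site, 4 passed the test, each of them lower in the TuD group. Over all tested genes with an 8-base miR-199a-5p site, 21.7% were lower and 9.71% were higher. Sites of 3 of those 4 and that of Slc25a37 are printed with their surroundings to show the matched letters in place. The capitals mark the bases that match positions 2 to 8 of miR-199a-5p and the A that follows them in the transcript.
Slc25a42: ttttaagccacACACTGGAgggtcacagtt
Slc25a13: aaaaatgaaaaACACTGGAaaggaaaaaaa
Slc25a23: gccctaatgccACACTGGAccagagatccc
Slc25a37: ctacagttgtaACACTGGAgctggaaaaaa
On mm10 and on the minus strand they lie at chr8:70186070-70186099 in Slc25a42, chr6:6041719-6041748 in Slc25a13, chr17:57044947-57044976 in Slc25a23 and chr14:69241867-69241896 in Slc25a37. Slc25a37 did not pass the test.

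A few members made up nearly all of the family's transcript level. FPKM was scaled between libraries by size factors, and the scaled value is called normalised FPKM. Slc25a4, the adenine nucleotide carrier of heart and muscle, alone gave 68.3%, 67.1% and 69.3% of the summed normalised FPKM of the 46 members in EGFP replicates 1, 2 and 3 and 76.0%, 76.0% and 78.4% in the TuD replicates. Together with Slc25a3, Slc25a11 and Slc25a5 it gave 90.9% to 91.5% in the EGFP libraries and 94.1% to 95.2% in the TuD libraries. Slc25a34 and Slc25a39 came next, between 53.6 and 106.6 normalised FPKM. Of the 46 members, 35 reached an FPKM of 1 in at least 3 of the 6 libraries and were tested. Slc25a14 met that filter only through the TuD group, where it was higher.

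**Figure D1:**
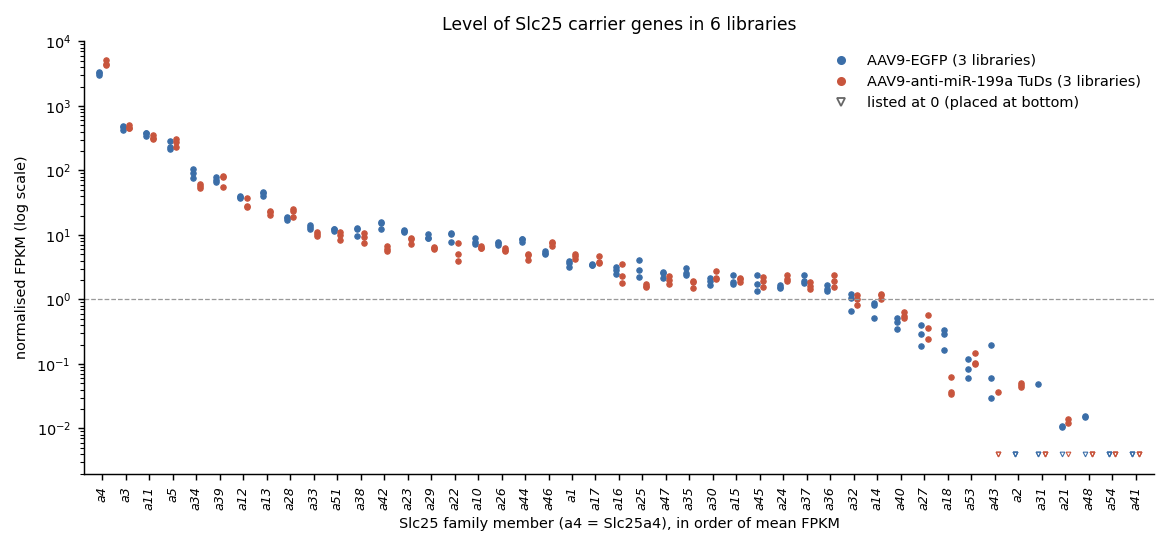
Normalised FPKM of the Slc25 members described here (log axis) in the 3 EGFP libraries (blue) and the 3 TuD libraries (red), in order of mean level, with triangles at the bottom for libraries listed at 0 and a dashed line at an FPKM of 1. Slc25a4 stands near the top of the axis and alone gives between 67.1% and 78.4% of the summed level in each library.

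The 11 members under the filter had few reads for the most part. Slc25a40, one of a pair of glutathione carriers, averaged 0.441 normalised FPKM in the EGFP group and 0.573 in the TuD group. Slc25a27, an uncoupling-protein-like carrier, averaged 0.297 and 0.399, and Slc25a53, a relative of the NAD carrier Slc25a51, averaged 0.0874 and 0.117. Slc25a18, the other glutamate carrier beside Slc25a22, had 6, 11 and 12 reads in the EGFP libraries and 1, 1 and 2 in the TuD libraries. With no filter on low values it was lower in the TuD group (log2 fold change -0.48, adjusted p = 0.036), a value that rests on 29 and 4 reads. Slc25a43 had 10 reads over the EGFP libraries and 1 over the TuD libraries. The testis-type adenine nucleotide carrier Slc25a31 had 2 reads, both in EGFP replicate 3, and Slc25a48 had 2 reads in the EGFP libraries. Slc25a21, the oxodicarboxylate carrier, had 2 reads in each group, and Slc25a2, an ornithine carrier, had 1 read in each TuD library. Slc25a41 and Slc25a54 were at 0 in all 6 libraries.

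Of the 35 tested members, 11 were lower in the TuD group, 2 were higher and 22 did not pass. The test was limma on log2 of the normalised FPKM plus 0.5, a threshold of 0.05 and p-values adjusted over 10460 genes, and log2 fold changes on that scale, TuD minus EGFP, understate the change of weakly expressed genes. Over all tested genes 29.3% passed, 15.0% as higher and 14.3% as lower in the TuD group. Of the 35 members 37.1% passed. The share that passed as lower was above the background share and the share that passed as higher was below it, which is a description of these libraries. The median log2 fold change of the 35 was -0.23, against 0.01 for all tested genes and -0.01 for the 9594 tested protein-coding genes. It was positive in 14 members and negative in 21. The 3 EGFP and 3 TuD values did not overlap in 21 of the 35, against a background of 47.9%. When FPKM was rescaled to TPM, in which every library has the same sum, the median of all tested genes moved to -0.36 and the family split into 0 higher and 19 lower, against 4.19% higher and 40.2% lower over all tested genes in that scaling. These were the same 11 and Slc25a10, Slc25a11, Slc25a12, Slc25a26, Slc25a37, Slc25a38, Slc25a47 and Slc25a51.

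**Figure D2:**
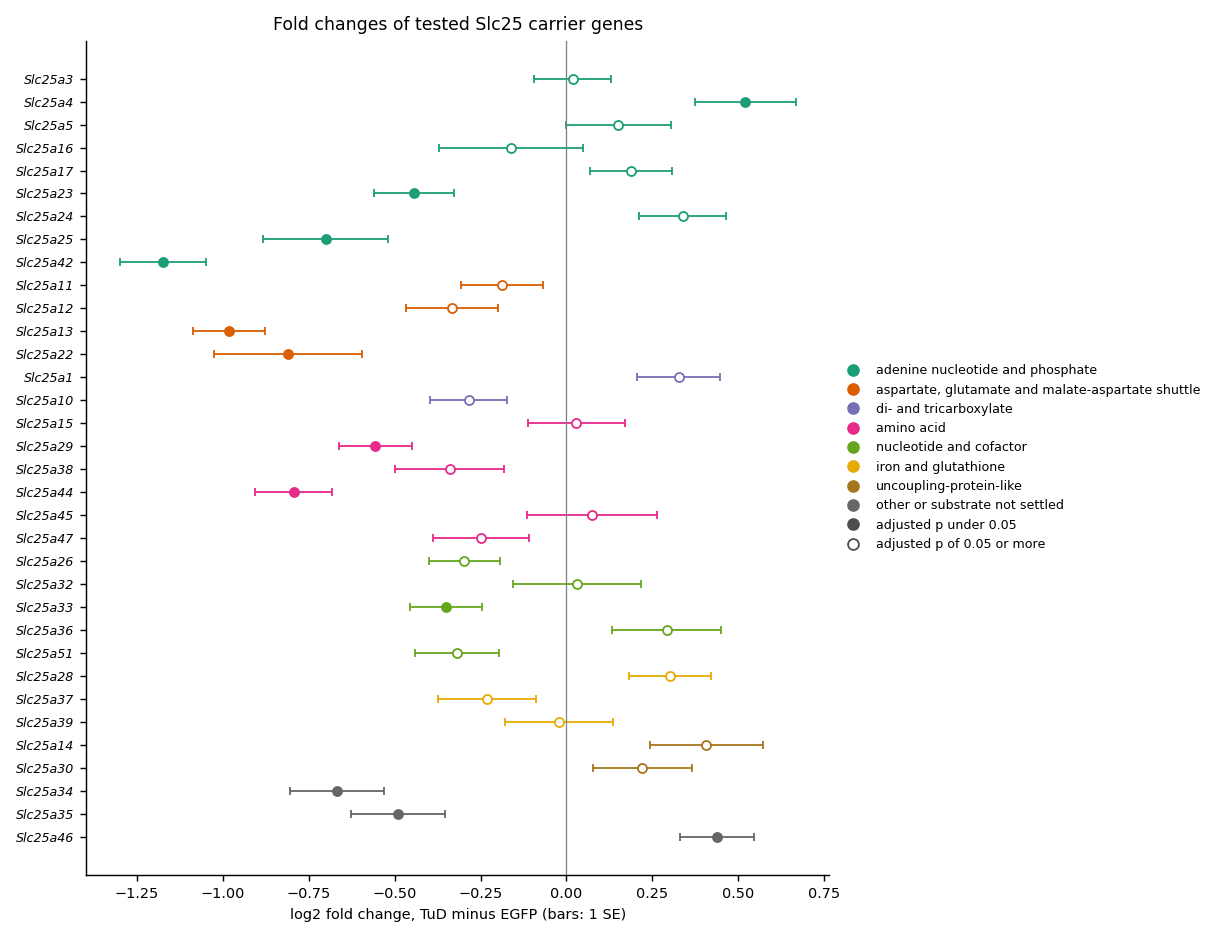
Log2 fold change (TuD minus EGFP) of the tested members described here with bars of 1 standard error, coloured by the substrate group of the carrier, filled where the adjusted p is under 0.05. The filled points are genes below 0, down to -1.17 for Slc25a42, and Slc25a4 and Slc25a46 above 0; with quantile normalization Slc25a4 was at -0.03.

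Slc25a42, Slc25a13, Slc25a44 and Slc25a29 held their call in each alternative that was run, a threshold of 0.01 included. The other 9 calls each ended in at least 1 alternative. With the Y-linked covariate, 6 of the 11 lower calls and 0 of the 2 higher calls remained. In each of the 13 genes all 3 TuD values, replicate 3 included, lay on the same side of the 3 EGFP values. TuD replicate 3 has Y-linked transcripts like the EGFP libraries, but the 13 genes were chosen by a test that used it. Its place is therefore no separate check on the Y-linked difference. Over all tested genes, the groups did not overlap in 47.9%.

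**Figure D3:**
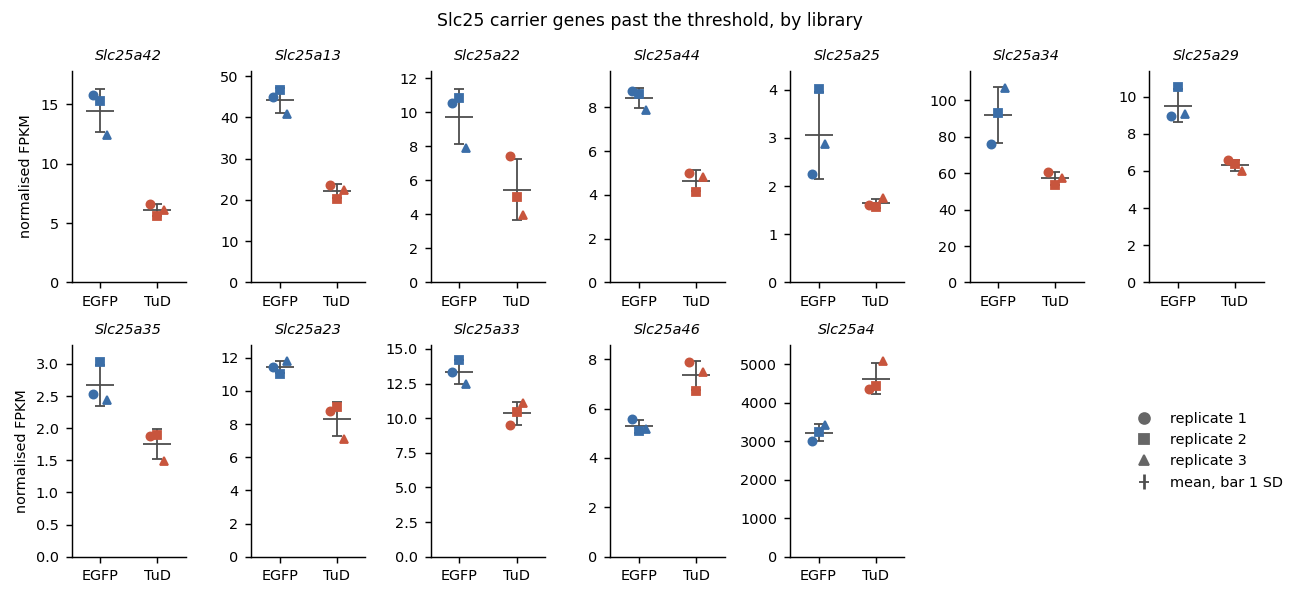
Normalised FPKM in each library of the members described here that passed the test (symbols mark replicates 1, 2 and 3), with the mean and 1 SD of each group, on axes that start at 0. In each panel the 3 EGFP points and the 3 TuD points do not overlap, in genes chosen by a test on these same libraries. Over all tested genes, the groups did not overlap in 47.9%. With quantile normalization the log2 fold change of Slc25a4 was -0.03.

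The counts by substrate group below are to be read beside all tested genes, of which 15.0% were higher and 14.3% lower. The carriers of adenine nucleotides, phosphate and coenzyme A moved in different directions. Of 12 listed members 9 were tested, and 1 was higher, 3 were lower and 5 did not pass. The median log2 fold change was 0.02. Slc25a4 (ENSMUSG00000031633, chr8:46206797-46211284), which exchanges matrix ATP for cytosolic ADP, stood at 2998, 3246 and 3417 normalised FPKM in EGFP replicates 1, 2 and 3, while the TuD replicates, in the same order, gave 4357, 4433 and 5080. Each TuD library was above each EGFP library, and TuD replicate 3 was the highest. The means were 3220 ± 211 and 4623 ± 398 (SD, n = 3), a log2 fold change of 0.52 ± 0.15 (SE, adjusted p = 0.0316), but it was -0.03 (adjusted p = 0.897) with quantile normalization and 0.13 (adjusted p = 0.56) after rescaling to TPM. The call also ended with the Y-linked covariate (0.66, adjusted p = 0.0623), with no filter (adjusted p = 0.256), and without EGFP replicates 1, 2 or 3 (adjusted p = 0.0979, 0.103 and 0.0856) or TuD replicates 1 or 3 (adjusted p = 0.0554 and 0.0544).

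The other abundant members of this group did not pass. Slc25a3, which brings phosphate into the matrix, was at 431, 482 and 477 normalised FPKM in the EGFP libraries and 455, 454 and 498 in the TuD libraries, and the groups overlapped throughout. Its log2 fold change was 0.02 (95% interval -0.24 to 0.27, adjusted p = 0.917), and with quantile normalization it was -0.40 (adjusted p = 0.0283). Slc25a5, the adenine nucleotide carrier of most tissues other than muscle, was at 218, 285 and 232 in the EGFP libraries and 280, 308 and 229 in the TuD libraries. TuD replicate 3 was the lowest of the TuD libraries here, opposite to its place for Slc25a4. The log2 fold change of Slc25a5 was 0.15 (95% interval -0.20 to 0.50, adjusted p = 0.481), but -0.17 (adjusted p = 0.382) with quantile normalization and, with the Y-linked covariate, -0.09 (adjusted p = 0.777). Slc25a4 and Slc25a5 are closely related genes, and how reads shared between them were counted is not given in the sources used here.

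Slc25a42 (ENSMUSG00000002346, chr8:70184340-70212305), which carries coenzyme A into the matrix in exchange for adenine nucleotides, had the lowest log2 fold change of the family. It stood at 15.8, 15.3 and 12.4 normalised FPKM in the EGFP libraries, and the TuD libraries gave 6.64, 5.61 and 6.09. The lowest EGFP library was well above the highest TuD library. The means were 14.5 ± 1.82 and 6.12 ± 0.517 (SD, n = 3), so that the EGFP mean was 2.37 times the TuD mean, and the log2 fold change was -1.17 ± 0.12 (SE, adjusted p = 0.00196). Beside the 8-base site printed above, its 3′ UTR of 2129 bases held 2 further miR-199a-5p sites of 7 bases. Slc25a16, which has been linked to coenzyme A supply, and Slc25a17, a peroxisomal carrier of coenzyme A and related cofactors, had log2 fold changes of -0.16 (adjusted p = 0.587) and 0.19 (adjusted p = 0.26), and with the Y-linked covariate 0.29 (adjusted p = 0.342) and 0.37 (adjusted p = 0.118).

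The ATP-Mg and phosphate carriers, which shift the adenine nucleotide content of the matrix and are regulated by calcium, were split. Slc25a25 (ENSMUSG00000026819, chr2:32414487-32451445) was at 2.26, 4.02 and 2.87 normalised FPKM in the EGFP libraries and 1.61, 1.56 and 1.75 in the TuD libraries. EGFP replicate 2 was the highest, and the TuD values lay close together. The means were 3.05 ± 0.895 and 1.64 ± 0.10 (SD, n = 3), with a log2 fold change of -0.70 ± 0.18 (SE, adjusted p = 0.0237). The call ended with the Y-linked covariate (adjusted p = 0.145), with a correction for gene length (-0.55, adjusted p = 0.0645), with no filter (adjusted p = 0.0794), and without EGFP replicates 2 or 3 (adjusted p = 0.0627 and 0.0612) or TuD replicates 1 or 2 (adjusted p = 0.0624 and 0.066). Slc25a25 overlaps Naif1 on the opposite strand by 989 bases, and the strand setting of the counting is not given in the sources used here.

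Slc25a23 (ENSMUSG00000046329, chr17:57043711-57059863) stood at 11.5, 11 and 11.8 normalised FPKM in the EGFP libraries and 8.78, 9.04 and 7.13 in the TuD libraries. The EGFP values were close together and all above the TuD values. The means were 11.4 ± 0.382 and 8.31 ± 1.04 (SD, n = 3), with a log2 fold change of -0.44 ± 0.12 (SE, adjusted p = 0.0244). The call ended with the length correction (-0.35, adjusted p = 0.0645), with no filter (adjusted p = 0.0525), and without EGFP replicates 1, 2 or 3 (adjusted p = 0.0639, 0.0629 and 0.0847). With the Y-linked covariate the log2 fold change of Slc25a23 was -0.65. Its 3′ UTR held 4 sites of 7 bases for miR-199a-5p beside the 8-base site. Slc25a24, of the same subfamily, averaged 1.58 ± 0.106 in the EGFP group and 2.14 ± 0.247 in the TuD group (SD, n = 3), a log2 fold change of 0.34 with non-overlapping groups that did not pass (adjusted p = 0.0781). The level of Slc25a23 was 7.35, 6.50 and 7.92 times that of Slc25a24 in the EGFP libraries and 4.17, 3.76 and 3.73 times in the TuD libraries, a ratio chosen after its values were seen.

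Among the carriers of aspartate, glutamate and the malate-aspartate shuttle, 2 of 4 tested members were lower, none was higher and 2 did not pass, and the median log2 fold change was -0.57. Slc25a13 (citrin, ENSMUSG00000015112, chr6:6041218-6217173) exports aspartate from the matrix in exchange for glutamate under the control of calcium. It stood at 44.8, 46.7 and 40.9 normalised FPKM in the EGFP libraries and 23.6, 20.2 and 22.5 in the TuD libraries, with a wide gap between the groups. The EGFP mean of 44.1 ± 2.97 was 2.0 times the TuD mean of 22.1 ± 1.71 (SD, n = 3), a log2 fold change of -0.98 ± 0.11 (SE, adjusted p = 0.00197). Its 3′ UTR held the 8-base miR-199a-5p site and 1 miR-199a-3p site of 7 bases.

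Slc25a12 (aralar), which carries the same substrates as Slc25a13 and is typical of heart and brain, did not pass. It was at 38.7, 40.1 and 37.3 normalised FPKM in the EGFP libraries and 27.3, 28.2 and 37.3 in the TuD libraries. TuD replicate 3 was at the level of the EGFP libraries, and TuD replicates 1 and 2 were below it. The log2 fold change was -0.33 (95% interval -0.64 to -0.03, adjusted p = 0.0929), and without TuD replicate 3 it was -0.48 and passed (adjusted p = 0.0106). With the Y-linked covariate it was -0.05 (adjusted p = 0.806). The ratio of Slc25a12 to Slc25a13, also chosen after its values were seen, was 0.864, 0.859 and 0.914 in the EGFP libraries and 1.16, 1.39 and 1.66 in the TuD libraries, so Slc25a13 was the more abundant of the pair in each EGFP library and Slc25a12 in each TuD library.

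Slc25a22 (ENSMUSG00000019082, chr7:141429744-141437892), which brings glutamate into the matrix with a proton, was at 10.5, 10.8 and 7.88 normalised FPKM in the EGFP libraries and 7.43, 5.0 and 3.95 in the TuD libraries. EGFP replicate 3 and TuD replicate 1 came close to each other without overlap. The means were 9.74 ± 1.61 and 5.46 ± 1.78 (SD, n = 3), with a log2 fold change of -0.81 ± 0.22 (SE, adjusted p = 0.0260). The call ended with no filter (adjusted p = 0.0872), without EGFP replicates 1 or 2 (adjusted p = 0.0766 and 0.0888) and without TuD replicate 2 (adjusted p = 0.0741). With the Y-linked covariate the log2 fold change of Slc25a22 was -1.19. Slc25a11, which exchanges oxoglutarate for malate in the shuttle, was at 340, 387 and 387 in the EGFP libraries and 304, 316 and 360 in the TuD libraries. The groups overlapped, the log2 fold change was -0.19 (95% interval -0.46 to 0.09, adjusted p = 0.262), and it passed as lower only with quantile normalization (-0.55, adjusted p = 0.00861) and after rescaling to TPM (-0.58, adjusted p = 0.0187), while it was -0.04 (adjusted p = 0.861) with the Y-linked covariate. None of the 4 enzymes of the shuttle passed: Got1 had a log2 fold change of -0.39 (adjusted p = 0.067), Got2 -0.25 (adjusted p = 0.087), Mdh1 0.23 (adjusted p = 0.197) and Mdh2 0.17 (adjusted p = 0.302).

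Of the amino acid carriers, 2 of 6 tested members were lower and 4 did not pass. Their median log2 fold change was -0.29. Slc25a44 (ENSMUSG00000050144, chr3:88410498-88425139), which carries branched-chain amino acids, stood at 8.76, 8.63 and 7.89 normalised FPKM in the EGFP libraries and 5.01, 4.12 and 4.84 in the TuD libraries. The groups were far apart relative to their spread. The means were 8.43 ± 0.469 and 4.66 ± 0.472 (SD, n = 3), with a log2 fold change of -0.79 ± 0.11 (SE, adjusted p = 0.00361). Its 3′ UTR held 1 site of 7 bases for each arm of miR-199a. Slc25a29 (ENSMUSG00000021265, chr12:108825873-108835883), a carrier of basic amino acids such as arginine and lysine, was at 8.98, 10.5 and 9.05 in the EGFP libraries and 6.57, 6.35 and 5.98 in the TuD libraries. Its TuD values lay close together, below all EGFP values. The means were 9.52 ± 0.870 and 6.30 ± 0.30 (SD, n = 3), with a log2 fold change of -0.56 ± 0.11 (SE, adjusted p = 0.00864). Slc25a38, the glycine carrier that serves heme synthesis, had a log2 fold change of -0.34 (95% interval -0.70 to 0.03, adjusted p = 0.14), and the ornithine carrier Slc25a15 of 0.03 (95% interval -0.30 to 0.36, adjusted p = 0.894). Slc25a45 (0.07, adjusted p = 0.792, and with the Y-linked covariate -0.14, adjusted p = 0.735) and Slc25a47 (-0.25, adjusted p = 0.209), placed in this group by the list, did not pass.

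Of the nucleotide and cofactor carriers, 2 of 6 tested members were lower and 4 did not pass. The group's median log2 fold change was -0.31. Slc25a33 (ENSMUSG00000028982, chr4:149744036-149774277), which carries pyrimidine nucleotides, was at 13.4, 14.2 and 12.5 normalised FPKM in the EGFP libraries and 9.50, 10.5 and 11.1 in the TuD libraries, and TuD replicate 3 was the nearest to the EGFP values. The means were 13.3 ± 0.852 and 10.4 ± 0.820 (SD, n = 3), with a log2 fold change of -0.35 ± 0.11 (SE, adjusted p = 0.0398). This was the call nearest the threshold among the lower members. It ended with the Y-linked covariate (-0.25, adjusted p = 0.258), without the variance trend (adjusted p = 0.0502), with limma-voom on recovered reads (adjusted p = 0.0539) and with no filter (adjusted p = 0.0658). It also ended without EGFP replicates 1, 2 or 3 (adjusted p = 0.0918, 0.129 and 0.0759) and without TuD replicates 1 or 2 (adjusted p = 0.125 and 0.0737). Slc25a36, the other pyrimidine nucleotide carrier, had a log2 fold change of 0.29 (adjusted p = 0.195, and 0.0492 with the length correction). Slc25a26, which brings S-adenosylmethionine into the matrix, had -0.30 (adjusted p = 0.0611, and 0.0386 with the filter at an FPKM of 5), and the NAD carrier Slc25a51 had -0.32 (adjusted p = 0.0838), both with non-overlapping groups. Slc25a32, a carrier of folate and flavin, was near the filter, with a log2 fold change of 0.03 (95% interval -0.40 to 0.46, adjusted p = 0.912).

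No carrier of the di- and tricarboxylate group, the iron and glutathione group or the uncoupling-protein-like group passed, which is 7 tested members in all. Slc25a1, which exports citrate for cytosolic acetyl-CoA, averaged 3.63 ± 0.387 normalised FPKM in the EGFP group and 4.67 ± 0.401 in the TuD group (SD, n = 3), a log2 fold change of 0.33 (adjusted p = 0.0743). The dicarboxylate carrier Slc25a10 averaged 7.99 ± 0.867 and 6.45 ± 0.282 (SD, n = 3), a log2 fold change of -0.28 (adjusted p = 0.0878). The groups did not overlap for either gene.

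Slc25a39, which brings glutathione into the matrix, was one of the more abundant members, at 67.2, 79.3 and 70.7 normalised FPKM in the EGFP libraries and 79.0, 81.5 and 55.9 in the TuD libraries. TuD replicate 3 was the lowest of all 6 and TuD replicate 2 the highest. The log2 fold change was -0.02 (95% interval -0.38 to 0.34, adjusted p = 0.930), and -0.37 (adjusted p = 0.122) with the Y-linked covariate. The mitoferrins, which supply iron to the matrix, had log2 fold changes of 0.30 for Slc25a28 (adjusted p = 0.0902, and 0.0468 without TuD replicate 1) and -0.23 for Slc25a37 (adjusted p = 0.247). Of the uncoupling-protein-like carriers, Slc25a14 had a log2 fold change of 0.41 (adjusted p = 0.0938) and Slc25a30 of 0.22 (adjusted p = 0.27).

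The last group of the list, other members or substrate not settled, had 3 tested members, and all 3 passed the test. Of these, 2 were lower and 1 was higher, and over all tested genes 29.3% passed. Slc25a34 (ENSMUSG00000040740, chr4:141618824-141623821), an orphan carrier, was the most abundant of the members that were lower, at 76.2, 92.9 and 106.6 normalised FPKM in the EGFP libraries and 60.8, 53.6 and 57.3 in the TuD libraries. The EGFP libraries varied more than the TuD libraries, and the groups did not overlap. The means were 91.9 ± 15.2 and 57.2 ± 3.63 (SD, n = 3), with a log2 fold change of -0.67 ± 0.14 (SE, adjusted p = 0.0104). With the Y-linked covariate it was -0.66 (adjusted p = 0.0641).

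Its relative Slc25a35 (ENSMUSG00000018740, chr11:68968131-68974365) was weakly expressed, at 2.54, 3.03 and 2.44 normalised FPKM in the EGFP libraries and 1.87, 1.90 and 1.49 in the TuD libraries. EGFP replicate 2 was the highest and TuD replicate 3 the lowest. The means were 2.67 ± 0.319 and 1.75 ± 0.231 (SD, n = 3), with a log2 fold change of -0.49 ± 0.14 (SE, adjusted p = 0.0301). The call ended with the Y-linked covariate (adjusted p = 0.0506), with no filter (adjusted p = 0.0834), without EGFP replicates 1, 2 or 3 (adjusted p = 0.0609, 0.107 and 0.0617) and without TuD replicates 1 or 3 (adjusted p = 0.0567 and 0.058).

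Slc25a46 (ENSMUSG00000024259, chr18:31580168-31609902), a protein of the outer mitochondrial membrane that takes part in mitochondrial fission and lipid traffic, was higher in the TuD group. It was at 5.58, 5.09 and 5.19 normalised FPKM in the EGFP libraries and 7.87, 6.70 and 7.49 in the TuD libraries, with a clear gap between them. The means were 5.29 ± 0.260 and 7.35 ± 0.596 (SD, n = 3), with a log2 fold change of 0.44 ± 0.11 (SE, adjusted p = 0.0189). The call ended with the Y-linked covariate (adjusted p = 0.0785), after rescaling to TPM (0.08, adjusted p = 0.65), without EGFP replicates 2 or 3 (adjusted p = 0.0708 and 0.0707) and without TuD replicate 1 (adjusted p = 0.063).

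Slc25a4 gave most of the family's level, and the summed level followed it. Summed normalised FPKM over all tested genes was 359114 to 396721 in the EGFP libraries and 456927 to 522545 in the TuD libraries. The total of all tested genes was thus also higher in the TuD group. The summed normalised FPKM of the 46 members was 4387, 4840 and 4931 in the EGFP libraries and 5730, 5835 and 6481 in the TuD libraries. The means were 4719 ± 292 and 6015 ± 407 (SD, n = 3), a difference of 1296 (two-sided exact permutation test, p = 0.1, the smallest value that 3 libraries against 3 can give). With Slc25a4 left out, the sum was 106.6 lower in the TuD group than in the EGFP group (exact permutation p = 0.3), and after rescaling to TPM the sum over all members was 285.1 lower (exact permutation p = 0.9). The level of Slc25a4 was 13.8, 11.4 and 14.8 times that of Slc25a5 in the EGFP libraries and 15.6, 14.4 and 22.2 times in the TuD libraries, and these ranges overlap.

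The members that passed as lower and the sites of miR-199a were set side by side. Pairing with a microRNA usually lowers a transcript, so release by a decoy would usually raise it. Mature miR-199a was not measured and whether any site was in use was not tested, so the counts below do not show what lowered a member. Of the 11 tested members with a site for either arm, 8 were lower in the TuD group, 0 were higher and 3 did not pass (Slc25a15, Slc25a37 and Slc25a51). The lower members with sites include Slc25a42, Slc25a13, Slc25a44, Slc25a29, Slc25a23 and Slc25a35 with miR-199a-5p sites, and Slc25a34 with a miR-199a-3p site. Of the 24 tested members without a site, 3 were lower (Slc25a22, Slc25a25 and Slc25a33), 2 were higher (Slc25a4 and Slc25a46) and 19 did not pass. Over all tested genes with a 3′ UTR, 19.0% of those with a site for either arm were lower and 8.93% were higher, against 13.0% and 15.4% of those without. With 8-base miR-199a-5p sites alone, 4 of 5 members were lower and 1 did not pass, and 21.7% of all tested genes with such a site were lower.

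For any miR-199a-5p site, 20.6% of all tested genes that hold one were lower and 8.93% were higher, against 13.2% and 14.7% of those without. Genes with sites also had longer 3′ UTRs, at a median of 2132.5 bases with a miR-199a-5p site and 874 bases without, and among the tested members the medians were 2185.5 and 1012 bases. The part of the sites or of 3′ UTR length in these differences was not tested.

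Gene length moved with the comparison across the whole table. Over the 10460 tested genes the correlation of log2 fold change with log10 gene length was -0.386, and over the 35 tested members it was -0.286. Both are descriptions across genes measured in the same 6 libraries. The median log2 fold change ran from 0.49 in the shortest length decile of genes to -0.17 in the longest. The members were of ordinary length, with a median of 3677 bases against 3852.5 bases for all tested genes, and the 11 lower members had a median of 3798 bases. With the trend on length removed from each library, 3 members were higher (Slc25a36 was added) and 8 were lower, and the calls that ended include those of Slc25a23 and Slc25a25.

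**Figure D4:**
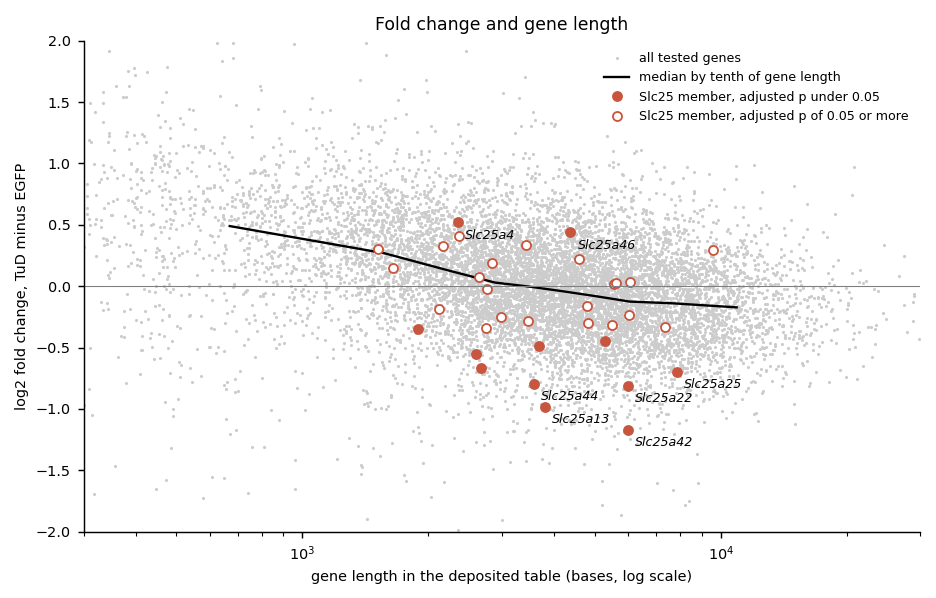
Log2 fold change (TuD minus EGFP) against gene length (log axis) for all tested genes (grey, with 152 genes outside the axes) and the tested members described here (red, filled where the adjusted p is under 0.05), with the median of each length decile as a line. The line falls from 0.49 to -0.17, and Slc25a42, Slc25a13 and Slc25a44 lie far below it at their lengths; Slc25a4 lies above it, but was at -0.03 with quantile normalization.

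Other genes of mitochondrial transport were listed beside the family. Over all tested genes 15.0% were higher and 14.3% were lower. Of the 4 tested relatives of the carriers that have other names, 2 were higher: Ucp2, an uncoupling protein, at 11 ± 1.32 and 19.1 ± 3.49 normalised FPKM (SD, n = 3; log2 fold change 0.76, adjusted p = 0.010), and Mtch2, a carrier-like protein of the outer membrane (0.37, adjusted p = 0.020). Mtch1 (0.35, adjusted p = 0.066) and Ucp3 (-0.72, adjusted p = 0.077) did not pass. Of 21 tested transporters and channels from other families, 7 were higher, 3 were lower and 11 did not pass. The median of the log2 fold changes was 0.09. The 4 with the smallest p-values were Abcb10, an ABC transporter of the inner membrane (-0.93, adjusted p = 0.004), Smdt1, a subunit of the calcium uniporter (0.77, adjusted p = 0.007), Sfxn3, a sideroflexin (0.54, adjusted p = 0.011), and Vdac3, a porin of the outer membrane (0.45, adjusted p = 0.016).

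Carrier proteins are made in the cytosol and reach the inner membrane through the TOM complex, small TIM chaperones and the TIM22 complex. Of 15 tested genes of this route, 5 were higher (against 15.0% of all tested genes), 1 was lower (against 14.3%) and 9 did not pass. The median of their log2 fold changes was 0.10. The 4 with the smallest p-values were Tomm7 (0.96, adjusted p = 0.003), Timm9 (0.78, adjusted p = 0.005), Timm8b (0.63, adjusted p = 0.007) and Timm29, a subunit of TIM22 (-0.52, adjusted p = 0.013). The difference between these lists and the carrier family was not tested.

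Over the 9 lists of cell type markers, 13 of 47 tested genes passed (27.7%), 12 as higher and 1 as lower, a total share near the background of 29.3%. Summed normalised FPKM over all tested genes was 359114 to 396721 in the EGFP libraries and 456927 to 522545 in the TuD libraries. The sums of the lists below are to be read beside that higher total in the TuD group. Of 10 cardiomyocyte markers, 4 were higher (Pln, Tnnt2, Myl2 and Tnni3) and 0 lower, and their summed level ranged from 29008 to 30372 normalised FPKM in the EGFP libraries and from 31704 to 38535 in the TuD libraries. Of 8 fibroblast markers 2 were higher and 1 was lower, and their sum ranged from 142 to 151 and from 137 to 188. Of 7 endothelial markers 1 was higher, with sums of 206 to 258 and 269 to 358, and of 6 tested pericyte and smooth muscle markers 2 were higher, with sums of 144 to 189 and 149 to 278. None of the 8 macrophage markers passed, with sums of 271 to 334 and 280.0 to 557, and 2 of 5 erythroid genes were higher, with sums of 1144 to 1606 and 1376 to 3295. Of 2 tested adipocyte genes 1 was higher (Cfd, from 0.360 to 5.47 normalised FPKM). Cfd met the filter only through the TuD group, where it was higher, and is counted among the 13 that passed. It had 13, 5 and 1 reads in the EGFP libraries and 134, 47 and 51 in the TuD libraries. The sum of the adipocyte list ranged from 35.0 to 36.2 and from 40.4 to 49.9, most of it Cidea, which did not pass. Its defining markers were under the filter: Adipoq had 1, 0 and 0 reads in the EGFP libraries and 19, 11 and 5 in the TuD libraries. Plin1 had 5 reads in the EGFP group and 21 in the TuD group, Retn had 3 and 23, and Ucp1 had 2 and 2. Lep went the other way, with 3 reads in the EGFP group and 1 in the TuD group. No lymphocyte marker reached the filter, and Ckm, which the heart also expresses, was the only tested gene of the skeletal muscle list and did not pass. The part of these markers in the carrier results was not tested.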

How the data were processed

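Libraries were grouped by the labels alone, 3 in each group. The authors deposited FPKM for each gene and library together with a gene length. The submitters' processing notes name HISAT2 2.0.5, featureCounts 1.5.0-p3 and the build mm10. Annotation release, strand setting and treatment of shared reads are not given in the sources used here. Multiplying FPKM by gene length recovered whole reads (100% of values above 0, tolerance 0.05 of a read), with means of 18.1 ± 0.115 M (EGFP) and 16.0 ± 0.731 M (TuD; SD, n = 3).

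Each column was scaled by a size factor, the median ratio over genes with an FPKM of at least 1 in all libraries (0.984 to 1.02). All 10460 genes with an FPKM of at least 1 in at least 3 libraries entered 1 limma fit (version 3.58.1, R 4.3.3, eBayes with trend, two-sided) on log2(normalised FPKM + 0.5), adjusted by Benjamini-Hochberg. Since the deposited unit is FPKM, no count model was used as the main test. The fit was tested on simulated data. Other steps used Python 3.11.15 (numpy 2.4.6; pandas 2.3.3; matplotlib 3.10.9).

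Except for 1 member that is counted in the totals but not reported here, every member past the threshold and the 5 tested members of highest mean FPKM are given per library, the other members by value, and at most 4 members of each other list by p-value. Ratios between members and the genes given as label checks were named after their values were seen. So were Adipoq, Plin1, Retn, Lep, Ucp1, Cidea, Ckm, Timm10b and Mcub among the list genes. The members and lists were chosen with earlier results of these data known. All 46 member identifiers are in GENCODE M21, 43 with the same coordinates (the exceptions are Slc25a28, Slc25a45 and Slc25a46). The 3 pseudogenes named after the family were at 0 FPKM. Nnt, on 2 rows, was left out. Alternatives were other scalings, pseudocounts, filters, variance models and thresholds, limma-voom on recovered reads, a length correction, protein-coding genes only, the Y-linked covariate, a replicate block and leaving out each library.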

Additional observations from a re-analysis of the deposited data

How the results depend on the processing

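Against 2 higher and 11 lower members, the Y-linked covariate gave 0 and 6, no filter 1 and 6, rescaling to TPM 0 and 19, a threshold of 0.01 gave 0 and 4, and a threshold of 0.1 gave 6 and 15. Quantile normalization gave 1 higher member and 13 lower. Leaving out a library gave 0 to 2 higher and 5 to 10 lower members. The other settings (deposited FPKM, both pseudocounts, the filter at an FPKM of 5, both variance models, limma-voom, length correction and protein-coding genes only) kept both counts within 1.5 times. With quantile normalization the sign changed in Slc25a4 (-0.029), Slc25a3 (-0.40) and Slc25a5 (-0.17), and with the Y-linked covariate in Slc25a5 (-0.09), Slc25a16 (0.29) and Slc25a45 (-0.14). The difference in the summed level changed sign after rescaling to TPM (-285), without Slc25a4 (-107) and without Slc25a4 and Slc25a3 (-112), and ranged from 1063 to 1438 when a library was left out. Over all tested genes, against 1565 higher and 1498 lower, rescaling to TPM gave 438 and 4202, no filter 1010 and 956, the Y-linked covariate 651 and 529, and a threshold of 0.01 gave 575 and 503. Leaving out EGFP replicate 2 gave 882 and 762, leaving out EGFP replicate 3 gave 958 and 883, and leaving out TuD replicate 1 gave 994 lower. The cause of these shifts was not tested, except that the covariate and the left-out libraries leave fewer degrees of freedom. The replicate numbers did not pair the samples (correlation of deviations 0.064, 0.088 and -0.055 for numbers 1, 2 and 3), and the replicate block gave 1 higher and 9 lower members, ending calls that include those of Slc25a4 (adjusted p = 0.0505) and Slc25a33 (adjusted p = 0.0737). The 11 members under the filter were left out by their FPKM. Slc25a40 was left out with 56 to 83 reads a library, while most of the others had few reads and Slc25a41 and Slc25a54 had 0. With no filter, Slc25a18 passed (adjusted p = 0.036).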
